A study of Mus musculus with 14 samples.

Results

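Dnase2b, Hsf4 and Plaat3 are genes of lens fibre denucleation, the loss of nuclei and other organelles that clears the optical path of the lens. They were described array by array in whole eyes of newborn mice with a conditional deletion of 1 of 2 chromatin remodelling ATPases. All 3 genes were measured, each by 1 probe set, among 12393 genes (20380 probe sets with a single gene symbol). The probe sets were 1450237_at for Dnase2b, 1425786_a_at for Hsf4 and 1451611_at for Plaat3, whose older symbol is Pla2g16. All probe sets of the 3 genes were taken by gene name, and the genes were chosen with earlier results of these data known.

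The RNA came from whole eyeballs of mice at postnatal day 1, and 50 ng of each sample was amplified, labelled with biotin and hybridised to 1 of 14 Affymetrix arrays. In the Snf2h experiment, 4 samples with a lens-conditional knockout (cKO) of Snf2h were set against 4 wildtype (WT) samples, all on C57BL/6. Snf2h, encoded by Smarca5, is the motor of ISWI complexes. For Brg1, 3 cKO samples were set against 3 wildtype samples, all on a mixed background. Brg1, encoded by Smarca4, is the motor of SWI/SNF complexes. The labels name neither a Cre driver nor the cells in which Brg1 was deleted, and all 3 Brg1 cKO arrays carry the genotype Brg1_cKO1. The study asked, by its title, how Snf2h acts in cell cycle exit, lens epithelial differentiation and fibre denucleation. No array serves both experiments. The labels do not say which animals the samples came from, so p-values measure the spread between these samples only.

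As background, fibre cells of the lens degrade their organelles as they mature. HSF4 is the heat shock factor of the postnatal lens. It is needed for expression of Dnase2b in fibres, and its loss leaves nuclei in place and causes cataract. DNase IIβ, the product of Dnase2b, is an acid endonuclease that digests the chromatin of fibre nuclei, and lenses without it keep undegraded DNA. PLAAT3 is a membrane-associated phospholipase that acts on the membranes of fibre organelles, and it is also known as a phospholipase of fat tissue.

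The promoter of Dnase2b is shown because HSF4, whose own level was measured here, recognises repeats of GAA and TTC. RefSeq windows (GRCm38.p6, from 250 bases before to 50 bases after a start) matched 2 of the 3 genes, Dnase2b and Plaat3. The Dnase2b window lies at chr3:146615549-146615848 on the minus strand, and the capitals mark GAATGTTC, the only match in it to any of the 4 motifs searched.
Dnase2b promoter: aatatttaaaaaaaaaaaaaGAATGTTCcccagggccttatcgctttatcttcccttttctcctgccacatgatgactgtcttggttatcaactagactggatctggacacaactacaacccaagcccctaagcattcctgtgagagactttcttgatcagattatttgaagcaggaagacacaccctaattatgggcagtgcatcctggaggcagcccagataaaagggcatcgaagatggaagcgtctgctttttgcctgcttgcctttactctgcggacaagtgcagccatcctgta
This match to GAANNTTC, a pair of head to head heat shock units, covers bases −230 to −223 from the start of that window. The RefSeq gene reaches farther upstream, to base 146617060, so this window belongs to a start inside the gene, and sequence before the outermost start is not shown. Among 32841 promoter windows of 300 bases, 7.86% held such a pair on either strand. The other motifs searched were the tail to tail pair TTCNNGAA (8.52% of windows), a run of 3 units, NGAANNTTCNNGAAN (0.597%), and the Maf core TGCTGA (19.5%). The run of 3 units contains both pairs, so these searches overlap. The 2 overlapping windows of Plaat3, chr19:7557209-7557508 and chr19:7557235-7557534 on the plus strand, held no match. A match is a run of letters and no measured binding site.

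All levels are given on the log2 scale of the deposited intensity. Median intensity lay between 101 and 114 on the 14 arrays, and the 25th percentile of the probe sets lay at a log2 level of 4.04 to 4.23. No detection calls came with the values. Snf2h cKO replicates 1 and 2 were near-identical, with an SD of 0.218 between their log2 values against 0.420 to 0.727 for the 17 remaining within-group pairs. Snf2h wildtype replicate 3 stood apart in RNA quality and tissue. The 3′ minus 5′ difference of its Gapdh control probe sets was 4.47, against 1.09 to 1.46 in the other wildtype arrays of that experiment and 0.775 to 0.989 in the Snf2h cKO. Its mean level of 18 skin markers was 7.80 where the median of its group was 5.97. The eye was represented in every group by retinal Crx (9.46 to 10.79) and by crystallins. Foxe3, a lens epithelial transcription factor, stayed at 3.03 to 3.89, close to the bottom of the scale. The mean level of 18 lens epithelial genes was far higher, at 7.92 to 8.46 over all arrays. All probe sets of the targeted gene overlapped between wildtype and cKO in each experiment, in whole eyes that also hold cells outside the lens. The Smarca5 probe set 1424205_at read 9.02 to 9.65 in Snf2h wildtype and 8.72 to 9.05 in Snf2h cKO, 1424206_at read 9.34 to 9.82 and 8.52 to 9.73, and 1424207_at read 6.60 to 7.82 and 7.38 to 7.83. The Smarca4 probe set 1426805_at read 7.75 to 8.47 in Brg1 wildtype and 7.06 to 7.92 in Brg1 cKO, and 1426804_at read 8.91 to 9.16 and 8.72 to 9.41. The targeted genes' probe sets thus gave no check of the labels.

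Hsf4, the transcription factor of the trio, was lower in both knockouts with no overlap of groups. With Snf2h deleted or intact, its levels were 8.21, 8.19, 7.79 and 8.39 in wildtype replicates 1 to 4 and 7.19, 6.98, 7.37 and 7.57 in cKO replicates 1 to 4. Every cKO array lay under every wildtype array. The wildtype mean was 8.14 ± 0.25 (SD, n = 4) and the cKO mean 7.28 ± 0.25 (SD, n = 4). The difference of −0.86 ± 0.18 (SE; 95% interval −1.27 to −0.46) left 55.0% of the wildtype level, with an adjusted p of 0.0897 in limma over all probe sets. In whole eyes, fewer fibre cells and less RNA per fibre cell cannot be told apart, for this gene as for the others.

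In the Brg1 experiment Hsf4 read 6.00, 6.80 and 6.54 in wildtype replicates 1 to 3 and 4.28, 4.83 and 3.07 in cKO replicates 1 to 3. The mean went from 6.45 ± 0.41 (SD, n = 3) to 4.06 ± 0.90 (SD, n = 3), a difference of −2.39 ± 0.45 (SE; 95% interval −3.43 to −1.35), or 5.23-fold lower. The adjusted p was 0.0948 in limma. The cKO arrays had 15.4% to 30.7% of all probe sets below Hsf4, where wildtype arrays had 41.5% to 51.1%. Without Brg1 cKO replicate 2, which kept the most Hsf4, the adjusted p was 0.0362. Without any other single array of this experiment it was 0.118 to 0.348.

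Dnase2b, the nuclease, had the largest differences of the trio in both knockouts. Its levels in the Snf2h experiment were 8.73, 8.94, 8.54 and 8.95 in wildtype replicates 1 to 4 and 6.54, 6.57, 7.59 and 8.32 in cKO replicates 1 to 4. The groups did not overlap, but cKO replicate 4 lay only a little under the lowest wildtype array, and the 2 lowest cKO arrays were the near-identical pair. The means were 8.79 ± 0.19 (SD, n = 4) and 7.26 ± 0.86 (SD, n = 4). The difference of −1.53 ± 0.37 (SE; 95% interval −2.35 to −0.72) left 34.5% of the wildtype level, 2.89-fold lower, with an adjusted p of 0.116 in limma.

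No probe set of the 20380 passed an adjusted p under 0.05 in the Snf2h experiment (0%), so none of the 3 genes was called there. Without wildtype replicate 1 the count was 184 and without wildtype replicate 4 it was 77, and Dnase2b (adjusted p = 0.112 and 0.107) and Hsf4 (0.0955 and 0.0793) were not among them. At an unadjusted p under 0.05, limma gave 3610 probe sets (17.7%), 7.58% lower and 10.1% higher, and 2 of the 3 genes, Dnase2b and Hsf4, were among the lower. RNA quality moved with these groups, as the Gapdh values show, and with the Gapdh difference as a covariate Dnase2b had −1.65 (adjusted p = 0.255) and Hsf4 −1.04 (adjusted p = 0.163). Lower levels with no overlap of groups were found for the same 2 genes and for 4.17% of all probe sets. With the near-identical pair averaged, the differences were −1.30 for Dnase2b (adjusted p = 0.289) and −0.80 for Hsf4 (adjusted p = 0.270). With array weights, which give less weight to arrays that deviate, both were called, Dnase2b at −2.03 (adjusted p = 0.0282) and Hsf4 at −1.03 (adjusted p = 0.0241).

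After Brg1 loss Dnase2b fell 21.9-fold. It read 7.72, 8.07 and 8.27 in wildtype replicates 1 to 3 and 2.94, 5.33 and 2.45 in cKO replicates 1 to 3. The cKO arrays were far below all wildtype arrays and differed among themselves, replicate 2 standing well above the other 2. The means were 8.02 ± 0.28 (SD, n = 3) and 3.57 ± 1.54 (SD, n = 3). The change was −4.45 ± 0.68 (SE; 95% interval −6.04 to −2.86), with an adjusted p of 0.0438 in limma, the second most negative of 20380 probe sets. In the cKO arrays 8.76% to 35.1% of probe sets were dimmer than Dnase2b, against 61.7% to 68.1% in wildtype. Part of the cKO signal can thus be background, and the fold change can be compressed to an unknown extent. The call was lost without any of the 3 Brg1 wildtype arrays (adjusted p = 0.182 to 0.210), without Brg1 cKO replicate 1 (0.103) and without Brg1 cKO replicate 3 (0.122), and it was 0.00105 without Brg1 cKO replicate 2.

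**Figure D1:**
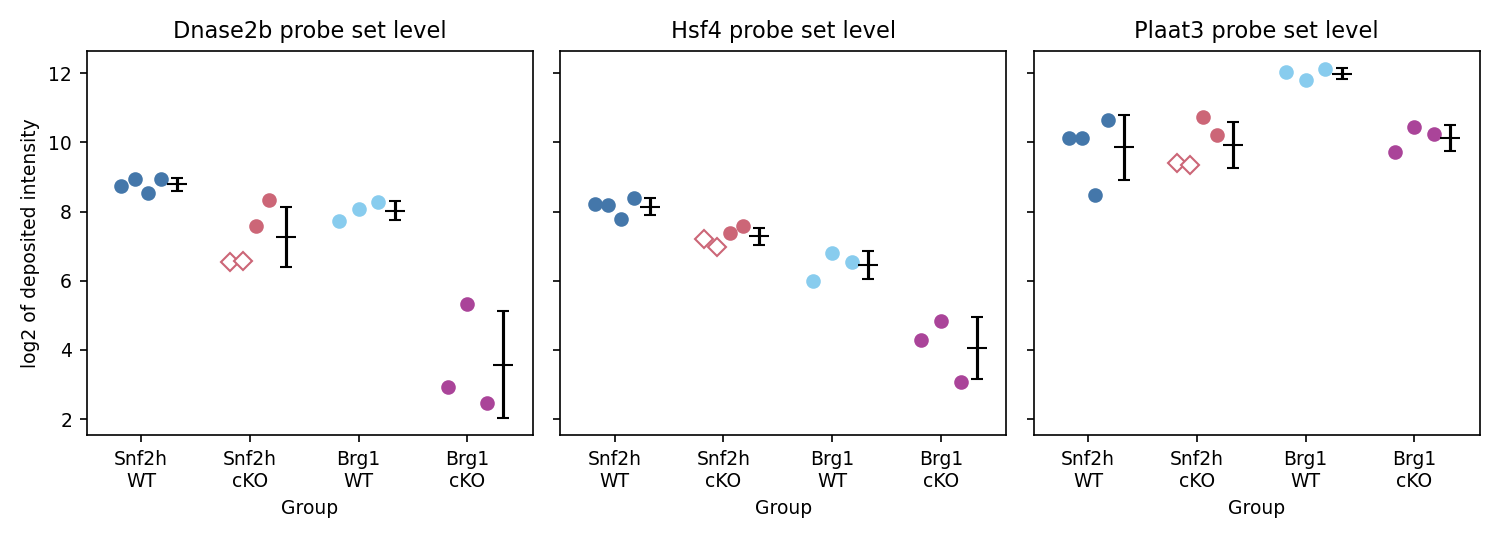
Log2 of the deposited intensity (vertical axis, no unit) of the Dnase2b, Hsf4 and Plaat3 probe sets by group, 1 point per array, with the mean and SD of each group as bars and the near-identical Snf2h cKO replicates 1 and 2 as open diamonds. Dnase2b and Hsf4 lie lower in both cKO groups than in their wildtype with no overlap, and Plaat3 is lower in the Brg1 cKO than in its wildtype, while 1 Snf2h wildtype array at 8.49 is the lowest Plaat3 value of all.

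Plaat3, the phospholipase, was called in the Brg1 experiment and had overlapping groups in the Snf2h experiment. With Snf2h deleted or intact it read 10.14, 10.14, 8.49 and 10.66 in wildtype replicates 1 to 4 and 9.42, 9.34, 10.72 and 10.20 in cKO replicates 1 to 4. The groups overlapped throughout, the lowest array being the wildtype replicate 3 that stood apart in RNA quality and skin markers. The difference was 0.064 ± 0.47 (SE; 95% interval −0.98 to 1.11; adjusted p = 0.953 in limma), an interval that includes the size of the Hsf4 difference in either direction. Without Snf2h wildtype replicate 3 the difference was −0.39 ± 0.34 (SE), without cKO replicate 3 it was −0.20 and without cKO replicate 4 it was −0.030. With the Gapdh covariate it was −0.63 and with array weights −0.45. Its sign in the Snf2h experiment therefore rests on single arrays.

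After Brg1 loss Plaat3 fell 3.61-fold, to 27.7% of the wildtype level. It read 12.03, 11.80 and 12.12 in wildtype replicates 1 to 3 and 9.72, 10.43 and 10.24 in cKO replicates 1 to 3, with no overlap and little spread in either group. The means were 11.98 ± 0.16 (SD, n = 3) and 10.13 ± 0.37 (SD, n = 3). The change was −1.85 ± 0.23 (SE; 95% interval −2.38 to −1.32; adjusted p = 0.0192 in limma). The call was lost without any of the 3 Brg1 wildtype arrays (adjusted p = 0.0976 to 0.138) and without Brg1 cKO replicate 3 (0.0861), and it stood without Brg1 cKO replicate 1 (0.0255) or 2 (0.0130).

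The Dnase2b call was also lost with a filter on dim probe sets (adjusted p = 0.0596), and the Plaat3 call in 1 fit over all arrays (adjusted p = 0.0805). With replicate numbers as a block, both calls were lost (adjusted p = 0.0732 each in limma). Of the 3 genes, 2 were called lower after Brg1 loss, where 0.26% of all probe sets were called lower and 0.363% higher (0.623% in either direction). All 3 were lower with no overlap of groups, as were 6.2% of all probe sets. Dnase2b and Hsf4 were lower with no overlap in both experiments, which held for 83 of 20380 probe sets (0.407%).

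**Figure D2:**
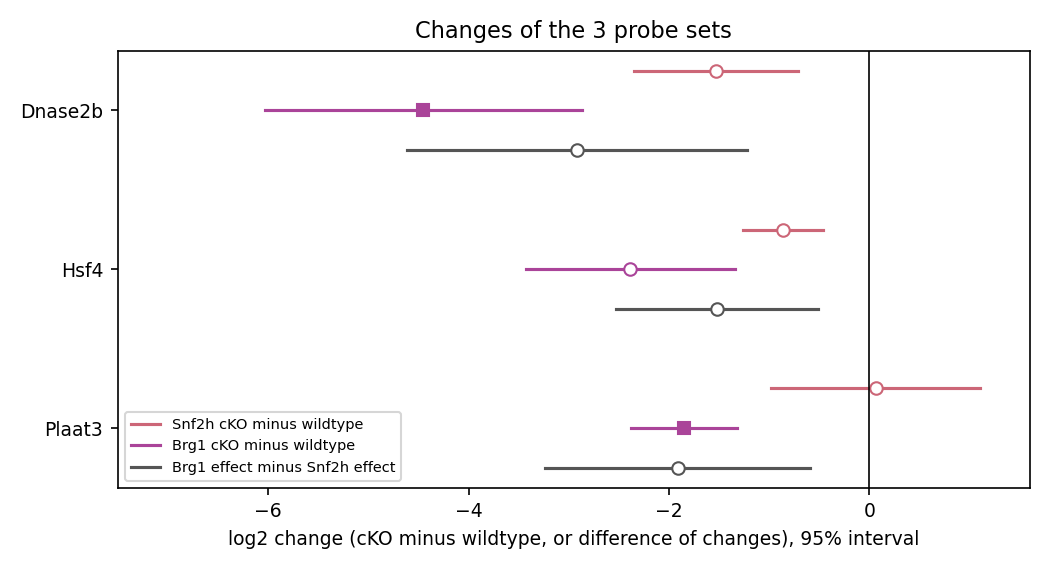
Log2 change with its 95% interval (horizontal axis) for each gene in the Snf2h experiment, in the Brg1 experiment and for the difference between the 2 changes, with filled squares where the adjusted p was under 0.05. Only Dnase2b at −4.45 and Plaat3 at −1.85 in the Brg1 experiment are filled, and the Plaat3 interval in the Snf2h experiment spans 0.

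The difference between the knockouts was tested directly for each gene as the Brg1 change minus the Snf2h change. For Dnase2b it was −2.92 ± 0.79 (SE; 95% interval −4.61 to −1.22; adjusted p = 0.144 in limma). For Hsf4 it was −1.52 ± 0.47 (SE; 95% interval −2.53 to −0.52; adjusted p = 0.196). For Plaat3 it was −1.91 ± 0.62 (SE; 95% interval −3.24 to −0.59; adjusted p = 0.213). All 3 intervals lay below 0 before adjustment and none of the 3 genes passed over all probe sets, of which 0.687% did, so a larger effect of Brg1 loss was not established for any of them. Without Brg1 cKO replicate 2 the adjusted p for Dnase2b was 0.00407, at −3.79. Without any other single array it was 0.137 to 0.289. Strain background and the 2 experiments cannot be told apart from the remodeller in this comparison.

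The wildtype groups themselves differed in level. Dnase2b averaged 8.79 in the Snf2h wildtype and 8.02 in the Brg1 wildtype, Hsf4 8.14 and 6.45, and Plaat3 9.86 and 11.98. For each gene the ranges of the 2 wildtype groups did not overlap. Over the 4 groups the order was Snf2h wildtype, Brg1 wildtype, Snf2h cKO and Brg1 cKO for Dnase2b from high to low, and the Brg1 wildtype range of 7.72 to 8.27 lay inside the Snf2h cKO range of 6.54 to 8.32. For Hsf4 the order was Snf2h wildtype, Snf2h cKO, Brg1 wildtype and Brg1 cKO, with no overlap between neighbours. For Plaat3 the Brg1 wildtype stood highest and the other 3 groups overlapped. No source used here says that RMA was run on both experiments at once, so levels across them were not tested.

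The difference of each gene was then set against the crystallins, the structural proteins of the fibre cytoplasm, as a measure of fibre RNA on the same array. The mean log2 level of 14 crystallins was 12.85, 12.92, 12.42 and 13.01 in Snf2h wildtype replicates 1 to 4 and 12.37, 12.38, 12.80 and 12.96 in Snf2h cKO replicates 1 to 4. These ranges overlapped. For Brg1 it was 12.59, 12.86 and 12.71 in wildtype replicates 1 to 3 and 10.47, 11.94 and 8.97 in cKO replicates 1 to 3, lower on every cKO array and lowest on replicate 3. Replicate 2, which kept the most crystallin, also kept the most Dnase2b, Hsf4 and Plaat3. The crystallins sit near the top of the scale, where signals can be compressed.

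Relative to the crystallins, Hsf4 in the Snf2h experiment separated the groups with little spread. The wildtype arrays lay between −4.74 and −4.62 (SD 0.053, n = 4) and the cKO arrays between −5.43 and −5.18 (SD 0.12, n = 4). The difference was −0.69 ± 0.064 (SE), with a two-sided exact permutation p of 0.0286, the smallest that 4 against 4 arrays can give, and 0.0857 after adjustment over the 6 tests of this kind. Dnase2b lay between −4.13 and −3.88 in wildtype and between −5.83 and −4.64 in cKO, again with no overlap. Its difference was −1.36 ± 0.29 (SE; exact permutation p = 0.0286, adjusted 0.0857). Since the crystallin signal can be compressed, these differences show unequal change on the array scale only. They do not separate a loss of fibre RNA from a lower share of these transcripts in it. Plaat3 differed by 0.24 ± 0.40 (SE; exact permutation p = 0.629) with overlapping groups, and by −0.090 without Snf2h wildtype replicate 3.

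After Brg1 loss, of the 3 genes only Dnase2b stayed apart on this scale. Relative to the crystallins it lay between −4.87 and −4.44 in wildtype and between −7.53 and −6.52 in cKO. The difference was −2.19 ± 0.35 (SE), with an exact permutation p of 0.1, the smallest that 3 against 3 arrays can give, so this design cannot reach 0.05. Hsf4 differed by −0.13 ± 0.40 (SE; exact permutation p = 0.8) and Plaat3 by 0.41 ± 0.85 (SE; exact permutation p = 0.9), and both overlapped between groups. The crystallin mean and Hsf4 were lower by a like amount there, 14 of 14 crystallins having a negative change with a median of −2.31.

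These results depended on the reference in the Brg1 experiment. Against 17 other fibre genes the differences were −3.36 for Dnase2b, −1.30 for Hsf4 and −0.77 for Plaat3. All 3 then separated the groups, each with an exact permutation p of 0.1 (adjusted 0.12), the smallest possible with 3 against 3 arrays. Against 18 genes of the lens epithelium the differences were −4.32, −2.26 and −1.72, with the same exact permutation p-values. For Snf2h the same references gave −1.09 and −1.33 for Dnase2b, −0.42 and −0.66 for Hsf4 and 0.51 and 0.27 for Plaat3. With the epithelial reference, the Snf2h groups overlapped for Dnase2b and Hsf4.

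**Figure D3:**
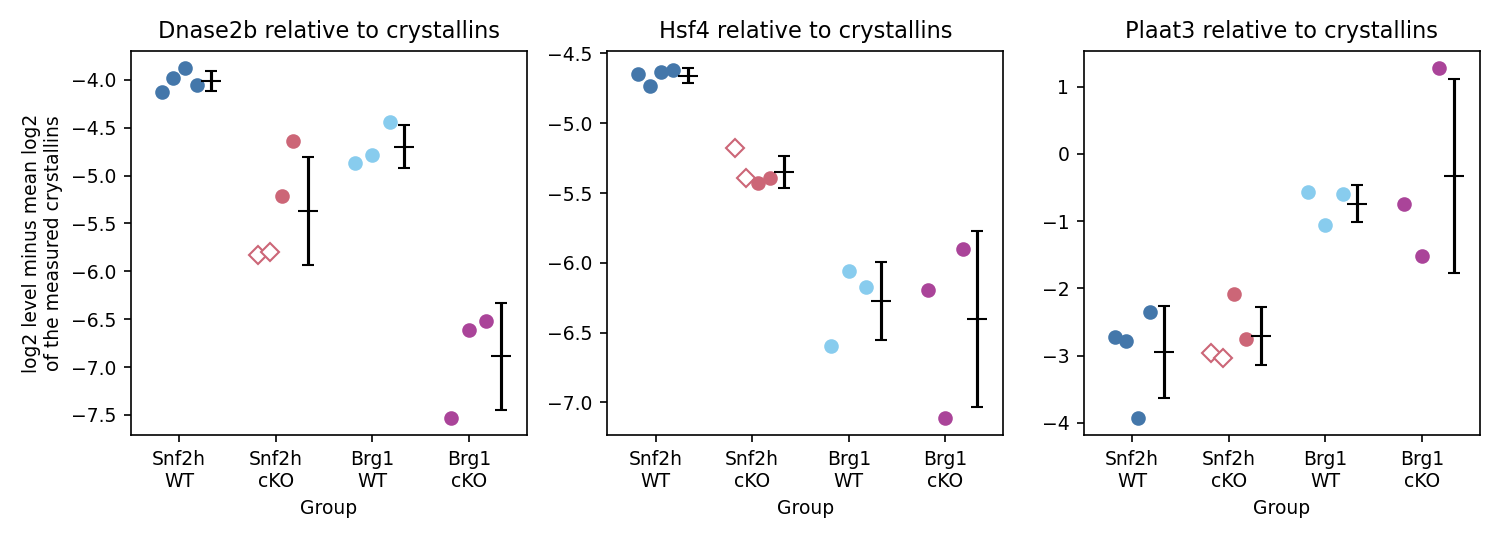
Log2 level of each gene minus the mean log2 level of 14 crystallins on the same array (vertical axis) by group, 1 point per array, with group mean and SD as bars and Snf2h cKO replicates 1 and 2 as open diamonds. Dnase2b is lower in both cKO groups than in their wildtype, Hsf4 is lower in the Snf2h cKO but overlaps in the Brg1 experiment, and Plaat3 overlaps in both.

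How far the 3 genes moved together was measured after each group's mean had been removed, which takes out the mean knockout effect. An effect that differs in size between cKO arrays remains in these deviations, and the crystallin mean also ran from 8.97 to 11.94 over the Brg1 cKO arrays. Over 14 arrays, Dnase2b and Hsf4 deviated in the same direction on 12, with r = 0.79 (exact permutation p = 0.0272 over pairings within groups, adjusted 0.0816 over 3 pairs) and rho = 0.74 (exact permutation p = 0.0183, adjusted 0.0275). Without Brg1 cKO replicates 2 and 3, the 2 arrays farthest from the median, r was 0.53. Brg1 cKO replicate 2, highest for both genes in its group, and replicate 3, lowest for both, carried much of the Pearson value. The adjusted p of r was 0.0122 without any 1 of the 3 Brg1 cKO arrays, with r from 0.62 to 0.89. Without any other single array it was 0.0567 to 0.153, so most such runs did not call this pair.

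By r over 14 arrays Plaat3 followed less closely. By rho, or by r without Brg1 cKO replicates 2 and 3, Dnase2b and Plaat3 were no less close than Dnase2b and Hsf4. Dnase2b and Plaat3 deviated in the same direction on 10 of 14 arrays, with r = 0.45 (exact permutation p = 0.0559, adjusted 0.0839) and rho = 0.75 (exact permutation p = 0.0118, adjusted 0.0275), and r was 0.60 without the same 2 arrays. Hsf4 and Plaat3 did so on 10 of 14, with r = 0.33 (exact permutation p = 0.134, adjusted 0.134) and rho = 0.53 (exact permutation p = 0.0529, adjusted 0.0529), and r was 0.52 without those arrays. With the near-identical pair averaged, leaving 13 arrays, r was 0.79, 0.39 and 0.30 for the 3 pairs and no adjusted p was under 0.05 (lowest 0.134 for r and 0.0842 for rho).

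Within experiments the relations differed. Over the 8 Snf2h arrays, r was 0.78 for Dnase2b and Hsf4 (exact permutation p adjusted to 0.0182), 0.88 for Hsf4 and Plaat3 (0.0182) and 0.60 for Dnase2b and Plaat3 (0.0799). The Hsf4 and Plaat3 value was 0.65 over the 6 arrays left without wildtype replicate 3 and cKO replicate 2, and with the near-identical pair averaged it was 0.89 over 7 arrays and 0.12 over the 5 left without wildtype replicate 3 and the averaged pair, so it rests on those samples. The adjusted p with the pair averaged was 0.0521 for both of the first pairs. Over the 6 Brg1 arrays, r was 0.81 for Dnase2b and Hsf4 (exact permutation p = 0.306), 0.53 for Dnase2b and Plaat3 (p = 0.583) and −0.055 for Hsf4 and Plaat3 (p = 0.944). Without cKO replicates 2 and 3 the Brg1 value for Dnase2b and Hsf4 was 0.17 over 4 arrays, so it rests on those arrays, while the Snf2h value was 0.81 without its 2 farthest arrays. The difference between experiments was not tested for any pair.

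**Figure D4:**
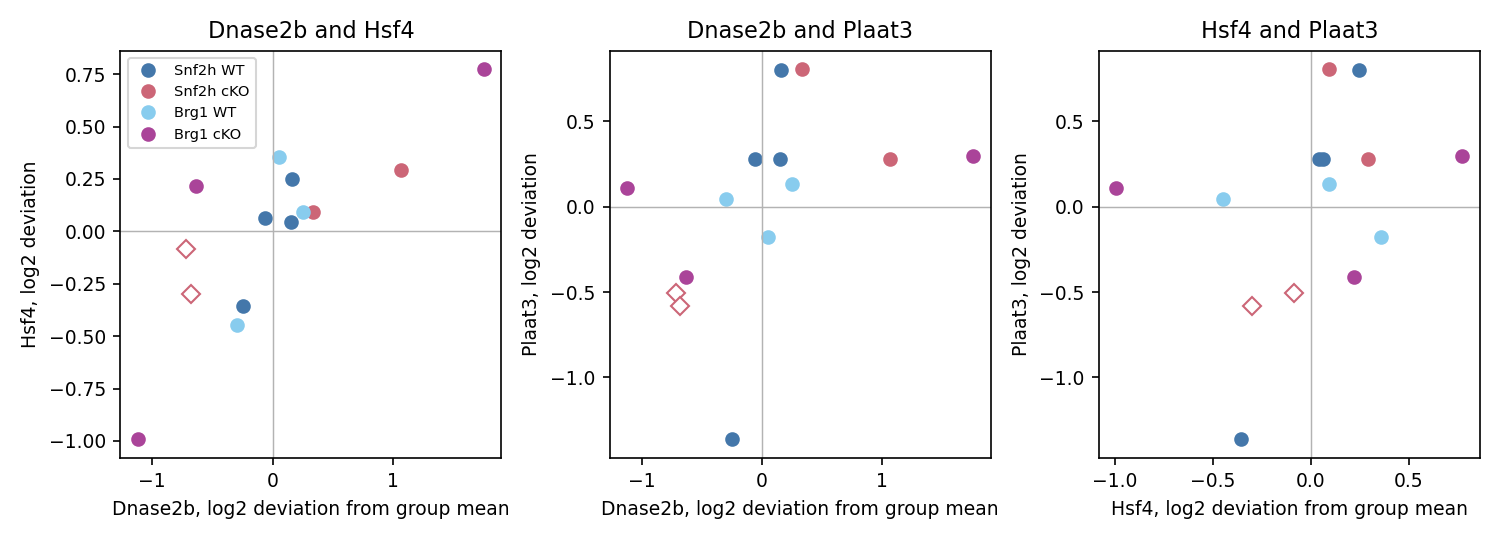
Deviation of each array from its group mean (log2 units, both axes) for the 3 gene pairs, 1 point per array and coloured by group, with Snf2h cKO replicates 1 and 2 as open diamonds. Dnase2b and Hsf4 deviate together on 12 of 14 arrays. Without the 1 Snf2h wildtype array with low Plaat3, r goes from 0.45 to 0.56 for Dnase2b and Plaat3. For Hsf4 and Plaat3 it goes from 0.33 to 0.20.

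The genes whose levels were most like each member were found among 6196 genes above the median level of all genes. Likeness was Pearson's r over 14 arrays that share groups and RNA quality, and is given as a description. Of the 3 members only Plaat3 was among the 6196 genes, so Dnase2b and Hsf4 could not be ranked for each other. Dnase2b was nearest to Bfsp1 (r = 0.97), which encodes the beaded filament protein filensin of fibre cells, then to Aldh1a1 (0.96), Crygs (0.96), Ndufa1 (0.95) and Cryab (0.94). After removal of group means it was again nearest to Bfsp1 (0.93) and Crygs (0.91), followed by Tdrd7 (0.90), an RNA granule protein whose loss causes cataract, Cryba2 (0.89) and Mtmr10 (0.88). A fibre gene thus came first on both scales.

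Hsf4 was nearest to Ndufa1 and Pdlim7 (r = 0.96 each), then to Nrcam and Slirp (0.95 each) and to Cryba4 (0.93). After removal of group means it was nearest to Map2k1 (0.95), Agap3 (0.94), Crygn (0.93), Cryba4 (0.92) and Tsr3 (0.92). Plaat3 was nearest to Gatad1 (0.92), Mgarp (0.90), Wdfy3 (0.88), Chtop (0.88) and Msi2 (0.87), none of them on the lens lists. After removal of group means, Wdfy3 and Sirpa (0.92 each), Ubl3 and Tmem250-ps (0.91 each) and Cwc15 (0.90) came first. Plaat3 itself ranked 2540 among the genes most like Dnase2b (r = 0.20) and 3559 among those most like Hsf4 (r = −0.11), on levels that include the differences between the experiments. After removal of group means it ranked 677 for Dnase2b (r = 0.45) and 1289 for Hsf4 (r = 0.33).

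The wider pathway was taken from 9 lists with 154 measured genes that do not include the 3 members. With Snf2h deleted, 0 of 154 passed the test in limma in either direction, where 0% of all genes did, and at an unadjusted p under 0.05 there were 14 lower and 15 higher, beside 8.4% and 8.04% of all genes. With Brg1 deleted, 1 rose and 4 fell, where 0.5% of all genes rose and 0.355% fell, and at an unadjusted p under 0.05 there were 29 lower and 5 higher, beside 3.68% and 5.36%. Most of the lower genes were lens products, with 13 of 14 crystallins and 9 of 17 fibre genes. The list of lens transcription factors and cell cycle exit had 4, heat shock 3, organelle removal 2 and phospholipases 1. The nuclease, lamina and apoptosis lists had 0. Some genes are on more than 1 list. The count of list genes called in the Brg1 experiment was 0 without Brg1 wildtype replicate 1 or 2 or Brg1 cKO replicate 3, 1 without wildtype replicate 3, 3 without cKO replicate 1 and 16 without cKO replicate 2.

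Of 12 other DNA nucleases 0 passed the test in either experiment, with a median change of 0.023 in the Snf2h and 0.11 in the Brg1 experiment beside −0.048 and 0.019 for all genes. Dnase2a, the closest relative of Dnase2b and a lysosomal nuclease of most tissues, had −0.48 ± 0.22 (SE; adjusted p = 0.299 in limma) and −0.10 ± 0.19 (SE; adjusted p = 0.935), read by a probe set of a kind that can bind related sequences. The largest values on the list were those of Dnase1l2 in the Snf2h experiment (1.25 ± 0.55, SE; adjusted p = 0.277) and of Dnase1l3, a nuclease of phagocytes, in the Brg1 experiment (1.01 ± 0.18, SE; adjusted p = 0.0910). Dnase1l3 was dim there, at 2.85 to 3.23 in wildtype and 3.94 to 4.26 in cKO. The Dnase2b difference had no counterpart of its size and sign among these nucleases.

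Genes of the nuclear lamina and envelope, with Cdk1, the kinase that takes the lamina apart, and its inhibitor Cdkn1b, gave 0 of 16 calls in both experiments and medians of −0.014 and −0.16. Banf1, which ties chromatin to the envelope, had 0.54 ± 0.19 (SE; adjusted p = 0.201) in the Snf2h experiment, and Nup153, a nuclear pore protein, had −0.50 ± 0.23 (SE; adjusted p = 0.649) in the Brg1 experiment. Phospholipases A other than Plaat3 gave 0 of 15 calls in both, with medians of −0.0078 and 0.024. Plaat1, a relative of Plaat3, had 0.058 ± 0.24 (SE) and 0.024 ± 0.17 (SE). Pla2g2d had −1.25 ± 0.38 (SE; adjusted p = 0.170) in the Snf2h experiment.

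Heat shock factors, heat shock proteins and lens genes under HSF4 gave 0 of 18 calls in both experiments, with medians of −0.029 and −0.11. The values of largest size on that list were those of lens genes in the Brg1 experiment. Bfsp1 had −4.35 ± 0.80 (SE; adjusted p = 0.0911), Cryab −1.52 ± 0.39 (SE; adjusted p = 0.251) and Cryaa −1.34 ± 0.31 (SE; adjusted p = 0.192). In the other experiment Bfsp1 had −0.72 ± 0.38 (SE; adjusted p = 0.344) and Hspb1, a small heat shock protein, −0.83 ± 0.27 (SE; adjusted p = 0.184). Hsf2, another heat shock factor, lay at 1.51 to 3.14 on all 14 arrays, near the bottom of the scale.

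Autophagy, lysosome, proteasome and lipoxygenase genes of organelle removal gave 0 of 28 calls in both experiments, with medians of 0.0067 and 0.045. Alox15, a lipoxygenase that can open organelle membranes, had negative values in both, −1.37 ± 0.37 (SE; adjusted p = 0.141) and −1.87 ± 0.37 (SE; adjusted p = 0.122). For Snf2h, Atg5 had 0.79 ± 0.18 (SE; adjusted p = 0.111) and Map1lc3a 1.03 ± 0.27 (SE; adjusted p = 0.138), both genes of autophagosome formation. Among caspase and apoptosis genes 1 of 16 was called, Casp1, an inflammatory caspase, which rose in the Brg1 experiment by 1.21 ± 0.18 (SE; adjusted p = 0.0359 in limma). Casp1 was dim, at 3.03 to 3.38 in Brg1 wildtype, below the 25th percentile of those arrays, and at 4.25 to 4.54 in Brg1 cKO.

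The calls that fell were transcription factor and fibre genes, all in the Brg1 experiment. Prox1, a homeobox factor of fibre elongation, fell by 1.83 ± 0.20 on the log2 scale (SE; adjusted p = 0.0150 in limma), 1 of 22 lens transcription factors and cell cycle exit genes (medians −0.076 in the Snf2h and −0.23 in the Brg1 experiment). Among 17 fibre genes 3 fell, Caprin2 by 2.17 ± 0.25 (SE; adjusted p = 0.0153), Tent5c by 2.03 ± 0.26 (SE; adjusted p = 0.0264) and Gja3, a gap junction protein of fibres, by 2.89 ± 0.39 (SE; adjusted p = 0.0297). The fibre list's median was −0.36 in the Snf2h experiment with 14 of 17 negative and −0.60 in the Brg1 experiment with 15 of 17 negative. Mip, the fibre aquaporin, had −1.29 ± 0.50 (SE; adjusted p = 0.239) and −2.28 ± 0.38 (SE; adjusted p = 0.0602). None of 14 crystallins was called in either experiment, while 13 of them were lower with no overlap of groups in the Brg1 experiment, where 6.25% of all genes were.

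**Figure D5:**
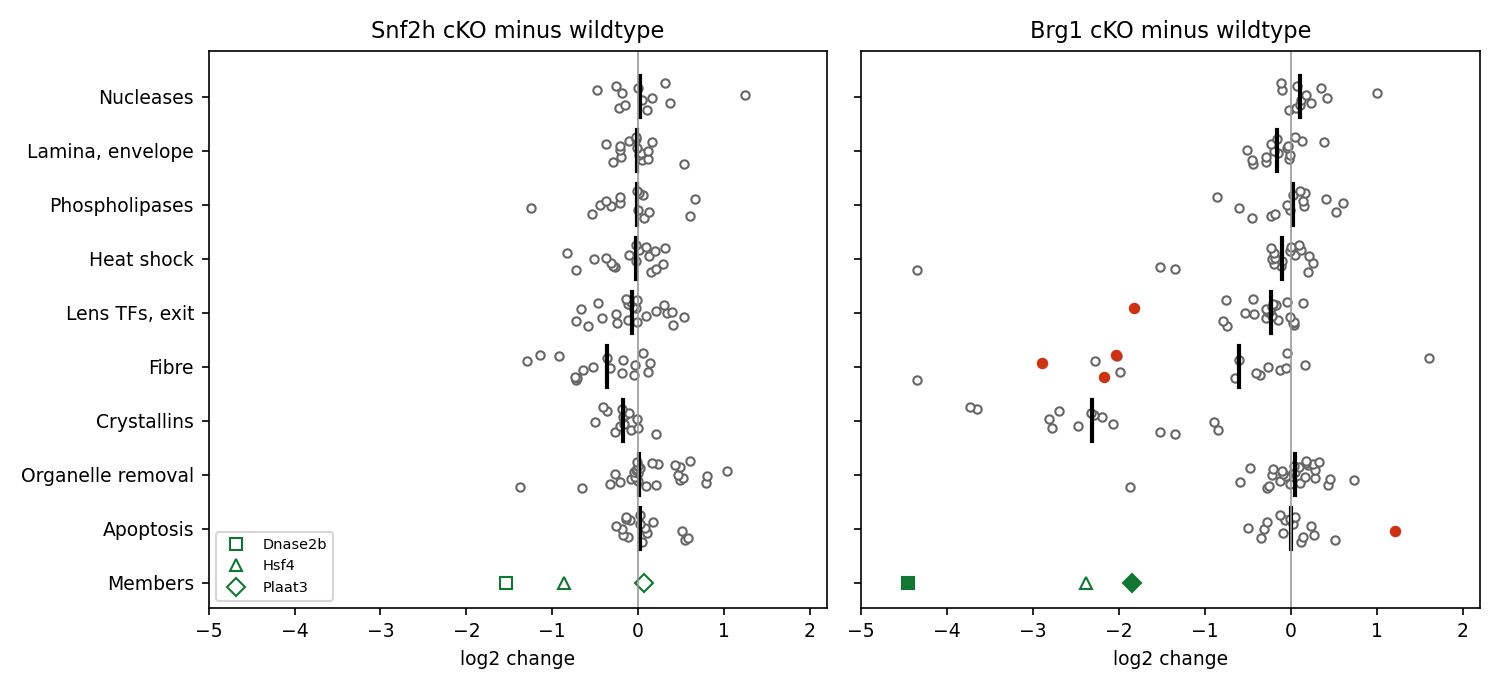
Log2 change (horizontal axis) of each measured gene of the 9 pathway lists, 1 point per gene, with the list median as a black bar, filled points where the adjusted p was under 0.05, and the 3 members in the bottom row. No point is filled in the Snf2h experiment, and in the Brg1 experiment 4 list genes are filled on the left and 1 on the right, beside Dnase2b and Plaat3.

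Markers of other eye tissues moved with the groups as well, and their part in the differences of the 3 genes was not tested. With Brg1 deleted, all 20 immune genes had positive changes and 4 rose (Il1b, Cd14, S100a8 and S100a9), with a mean level of 5.88 to 6.29 in wildtype and 7.43 to 8.66 in cKO. The corneal list of 8 genes went from 8.93 to 9.34 in wildtype to 7.72 to 8.38 in cKO, and Krt12, a keratin of the corneal epithelium, fell by 3.70 on the log2 scale (adjusted p = 0.000546 in limma). The 18 lens epithelial genes overlapped in mean level, at 8.33 to 8.46 in wildtype and 8.17 to 8.36 in cKO, with 0 calls. With Snf2h deleted, the 17 retinal genes had a mean level of 7.87 to 8.23 in wildtype and 8.45 to 8.87 in cKO, with 0 calls and 15 positive. The lens epithelial genes there had a mean level of 8.05 to 8.24 in wildtype and 7.92 to 8.03 in cKO, with no overlap and 0 calls, and 5 of 18 were lower and 0 higher at an unadjusted p under 0.05 in limma. Adipocyte genes, listed because Plaat3 is known from fat, gave 0 of 13 calls in both experiments, and their mean level of 5.42 to 5.70 in Brg1 wildtype overlapped 5.48 to 5.79 in Brg1 cKO. The list held dim and bright genes. Adipoq, a gene of fat cells, stayed at 2.23 to 3.24 on all 14 arrays, near the lowest signals, while Fabp4 lay at 6.98 to 10.28 and Lpl at 9.32 to 11.17.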

How the data were processed

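The authors deposited 1 linear intensity for each probe set and array, made with RMA according to the submitters' processing notes (the version is not given in the sources used here). Log2 was taken with no further scaling. Of 22690 probe sets, 64 controls, 691 with several genes and 1555 with no gene were left out, and the RefSeq gene table changed 0 symbols. For lists and likeness, a gene was represented by its probe set of highest mean level. The arrays' number limits the precision.

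Each knockout was compared with its own wildtype in limma 3.58.1 (R 4.3.3, lmFit and eBayes, two-sided, groups of that experiment only), with Benjamini-Hochberg adjustment over 20380 probe sets and a threshold of 0.05. The difference between knockouts was a contrast over all 14 arrays. Single values relative to crystallins, and correlations of deviations, were tested by exact permutation in Python 3.11.15 with scipy 1.17.1. The scripts' limma step was tested on simulated data. Alternatives were quantile normalisation, a dim filter, other probe set choices, trended robust eBayes, array weights, the replicate block, 1 fit over all arrays, a Gapdh covariate, the near-identical pair averaged, other lens references and leaving out each array.

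The members, gene lists and alternatives were chosen with earlier results of these data known. Named genes were the members, all called list genes and up to 3 genes per list and comparison with the smallest p (not all are printed), and for likeness the first 5 per member. Plaat1, Hsf2, Adipoq, Fabp4, Crx, Foxe3 and, in 1 of the experiments, Dnase2a, Bfsp1 and Cryab were added outside this rule for their role.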

Additional observations from a re-analysis of the deposited data

Results flagged for a closer look

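The level of Hsf4 relative to the 14 crystallins stood out on 1 Snf2h cKO array. Replicate 1 lay at −5.18 and the other 3 cKO arrays at −5.43 to −5.39, so that the gap to its nearest neighbour made up 0.839 of the whole range of the group. Replicate 2, which is near-identical to replicate 1 over all probe sets, was among the other 3. All 4 values lay below the wildtype arrays, at −4.74 to −4.62. Chance marks about 1 in 20 groups this way.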

How the results depend on the processing

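The Snf2h differences of Dnase2b and Hsf4 kept their negative sign in every alternative run, and only array weights called them, at −2.03 and −1.03. Array weights also gave −0.45 for Plaat3 in the Snf2h experiment, −2.63 for Hsf4 in the Brg1 experiment (adjusted p = 0.0350), and 6 Snf2h and 10 Brg1 list genes. With the Gapdh 3′ minus 5′ difference as covariate, Plaat3 was −0.63 in the Snf2h experiment, Hsf4 −2.51 in the Brg1 experiment (adjusted p = 0.0287) and 17 Brg1 list genes were called. A filter at a log2 level of 6.87, which removed Hsf4, gave −4.45 for Dnase2b (adjusted p = 0.0596), 15 in place of 127 Brg1 probe sets and 2 list genes, and trended robust eBayes gave 8 list genes. In 1 fit over all arrays, Hsf4 was −2.39 (adjusted p = 0.00260), Plaat3 −1.85 (adjusted p = 0.0805) and 16 list genes were called in the Brg1 experiment, and 280 probe sets. The cause of these changes was not tested.

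Whether replicate numbers pair the samples is not known, as the labels do not say. Same-numbered arrays had correlations of deviations from −0.23 to 0.06 in the Snf2h and from 0.07 to 0.13 in the Brg1 experiment. Arrays with different numbers had −0.23 to 0.28 and −0.34 to 0.24, so these values do not settle it. With the replicate block, Brg1 values were −4.45 for Dnase2b and −1.85 for Plaat3 (adjusted p = 0.0732 each), with 1 list gene and 50 probe sets called.

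Relative to crystallins, Plaat3 in the Brg1 experiment was 0.41, but −0.77 and −1.72 against the fibre and epithelial lists. Over the Snf2h arrays alone r was 0.78 for Dnase2b and Hsf4 and 0.88 for Hsf4 and Plaat3, and over the Brg1 arrays −0.055 for the latter pair.

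With each array left out in turn, Brg1 changes ranged from −5.33 to −3.89 for Dnase2b, −2.77 to −1.89 for Hsf4 and −2.0 to −1.64 for Plaat3. Snf2h differences ranged from −1.89 to −1.29, −0.98 to −0.76 and −0.39 to 0.33. The Dnase2b difference between knockouts ranged from −3.79 to −2.36. Relative to crystallins, Hsf4 in the Brg1 experiment ranged from −0.38 to 0.23, Plaat3 there from −0.39 to 1.0 and in the Snf2h experiment from −0.090 to 0.44. Values of r ranged from 0.62 to 0.89 for Dnase2b and Hsf4, 0.39 to 0.56 for Dnase2b and Plaat3 and 0.20 to 0.63 for Hsf4 and Plaat3. All 3 pairs were called without Brg1 cKO replicate 1 or 3, and only Dnase2b and Hsf4 without Brg1 cKO replicate 2. No pair was called without any other single array. List genes called ranged from 0 to 16 (Brg1) and 0 to 2 (Snf2h, 2 without wildtype replicate 1), and probe sets called from 25 to 199 (Brg1) and 0 to 184 (Snf2h, 561 with array weights). Signal over background limits Dnase2b and Hsf4 in the Brg1 cKO arrays.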

Other observations

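Lens regulators beside Hsf4 had values of smaller size. In the Snf2h experiment Gata3, a factor of fibre cell cycle exit, had −0.72 ± 0.22 (SE; adjusted p = 0.175 in limma), Pitx3 −0.66 ± 0.19 (SE; adjusted p = 0.157) and the cell cycle inhibitor Cdkn1c −0.59 ± 0.15 (SE; adjusted p = 0.135). With Brg1 deleted, Sox2 had −0.75 ± 0.21 (SE; adjusted p = 0.313) and Gata3 −0.78 ± 0.29 (SE; adjusted p = 0.518). None of these passed the test, whereas Prox1, as given above, was called lower in the Brg1 experiment.

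The cornified envelope genes Sprr1b and Sprr1a rose in the Brg1 experiment, by 5.62 ± 0.26 and 4.62 ± 0.23 on the log2 scale (SE; adjusted p = 0.000537 each in limma), while the other 16 skin genes were not called.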
